A study of Mus musculus with 16 samples.

Results

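The response of brown adipocytes with CRISPR-activated *Gm15551* to isoproterenol was measured in 8 of the 16 RNA-seq libraries of the series. All libraries whose titles name the sgRNA plasmid pair pSgRNA-MS2-2+7 were taken, 4 from cells labelled iso and 4 from cells labelled ctrl, and each stimulated library was compared with the control library of the same replicate number (3, 4, 5 or 6). The cells were wt1-SAM, an immortalized mouse brown preadipocyte line that stably expresses the CRISPR activation system SAM, so all libraries come from a single cell line and not from separate animals. Both groups went through the same differentiation with rosiglitazone, T3, dexamethasone, insulin, indomethacin and IBMX, and rosiglitazone stayed in the medium thereafter. Both received 250 ng of plasmid on day 4 and were harvested on day 7. The iso cells were given 1 µM isoproterenol for the last 24 h, and the ctrl cells were not. Whether the replicate numbers stand for separate differentiations was not stated, so the p-values below measure the spread between these libraries, which may be technical. The 8 libraries with the empty plasmid entered the test of whether the response differed between plasmids and an alternative fit over all 16 libraries. Their counts of *Gm15551* are also given.

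Isoproterenol is an agonist of β-adrenergic receptors, the receptors through which noradrenaline from sympathetic nerves acts on brown fat. The receptor couples through Gs to adenylyl cyclase, the cyclic AMP that is made activates protein kinase A, and the kinase acts at once on lipolytic enzymes and lipid droplet proteins and, through CREB family transcription factors, on genes such as the NR4A nuclear receptors. Phosphodiesterases break cyclic AMP down again. In brown adipocytes the pathway is known for inducing *Ucp1*, which encodes the uncoupling protein that lets the respiratory chain give off heat, together with *Ppargc1a*, *Dio2* and other thermogenic genes. In the SAM system a catalytically dead Cas9 and activator proteins bound to the guide RNA raise transcription near the guide's target.

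The guides define these cells, so the target sequences of the pair are shown, written 5′ to 3′ with an adjacent PAM in capitals where the reference window held it.
Gm15551-2: cacttccagttatataagcgTGG
Gm15551-7: agggttttttgctaaaacgg
The target of guide 2 lies at chr3:126669053-126669072 (GRCm38) on the minus strand, 9 bases upstream of the start that GENCODE gives *Gm15551* and 110 bases upstream of the RefSeq start. The target of guide 7 was not in the RefSeq promoter window of the gene, and its position was not determined here. *Gm15551* (ENSMUSG00000086679) is annotated at chr3:126667329-126669044, minus strand, as an antisense gene with 2 exons. It lies inside *Camk2d* (ENSMUSG00000053819), a calmodulin-dependent kinase gene on the plus strand at chr3:126596302-126846326, and 0 of its exons overlap an exon of *Camk2d*.

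The 8 libraries held between 11066120 and 14679617 estimated counts. A single ribosomal RNA gene took 17.8% to 20.2% of the counts in the control libraries and 11.7% to 28.7% in the stimulated ones, with a mean of 19.1% ± 1.11 (SD, n = 4) against 21.1% ± 7.18 (SD, n = 4). Levels are given as CPM, counts scaled to a common library size, after TMM scaling, and 3 counts, the limit that a count of 0 allows, correspond to 0.188 to 0.298 CPM. Mature adipocyte markers checked that the cells were adipocytes, not that the adipocytes were brown. *Fabp4*, which encodes the fatty acid binding protein of adipocytes, was at 18520, 20430, 17590 and 15650 CPM in the control libraries and 16840, 19450, 14190 and 9534 CPM in the stimulated libraries. Here and below, values are listed in the order of replicates 3, 4, 5 and 6. Of 27 thermogenic genes of brown fat, 19 passed the filter on low counts and 3 had no count in any of the 8 libraries. The low levels of *Ucp1* and *Dio2* are given below. Of 20 markers of skeletal muscle, endothelium, blood cells and Schwann cells, 5 had no count in any of the 8 libraries and 3 passed the filter on low counts, of which 0 were called by edgeR or DESeq2 and 0 had an unadjusted p under 0.05. The summed level of the 20 was 5.88 to 7.91 CPM in the control libraries and 6.06 to 8.36 CPM in the stimulated ones.

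The activated gene itself was present in all 8 libraries. *Gm15551* had 56, 42, 19 and 44 counts in the control libraries and 23, 26, 13 and 24 counts in the stimulated libraries. In the libraries with the empty plasmid the counts were 18, 15, 3 and 13 without and 0, 3, 0 and 5 with isoproterenol. Scaled, the sgRNA cells were at 4.39, 3.58, 1.58 and 3.75 CPM in the control libraries and 2.28, 1.63, 1.17 and 1.89 CPM in the stimulated libraries, lower under isoproterenol in all 4 pairs although the groups overlapped. The fall passed the test (log2 fold change −0.91 ± 0.22, adjusted p = 0.0214), where the figure after ± is the standard error of edgeR's quasi-likelihood test over 4 pairs and p is adjusted by Benjamini-Hochberg over all genes tested. The call rested on few counts and was lost without replicate 3 (adjusted p = 0.109), without replicate 4 (0.0677) or without replicate 6 (0.0635), and in DESeq2 (0.163). *Camk2d*, the gene that surrounds it, was at 71.7, 70.7, 83.7 and 79 CPM in controls against 52.8, 54, 62.3 and 64 CPM under isoproterenol. All 4 stimulated libraries lay below all 4 controls, and the difference (log2 fold change −0.39 ± 0.06, adjusted p = 0.00131) was within the bound of 0.5 that a call required.

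Of 54347 genes in the table, 31877 had a count in at least 1 of the 8 libraries and 12610 passed the filter on low counts. A gene was called when its adjusted p was under 0.05 and its log2 fold change beyond 0.5 in either direction. Isoproterenol raised 294 genes (2.33% of those tested) and lowered 259 (2.05%), together 553 (4.39%), and these shares are the background for the counts of called genes in each group. Of the raised genes 285 were higher in all 4 pairs, and of the lowered genes 257 were lower in all 4. With no bound on the fold change, 799 genes were higher (6.34%) and 787 lower (6.24%), so 1033 changes with an adjusted p under 0.05 were smaller than the bound. An unadjusted p under 0.05 was reached by 3375 genes (26.8%), the background for the counts of such genes in each group. The rises reached further than the falls. Their median log2 fold change was 0.85 against −0.68 for the falls, and 25 genes rose by more than 2 on the log2 scale where 1 gene fell by as much. All 4 stimulated libraries lay above all 4 controls for 458 of the genes tested (3.63%) and below them for 494 (3.92%). That was the case for 145 of the 294 raised and 130 of the 259 lowered genes. For the others the levels of the groups overlapped. Treating the libraries as unpaired left 79 calls, 48 higher and 31 lower, all of them among the 553. The median over all genes tested was −0.0034.

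**Figure D1:**
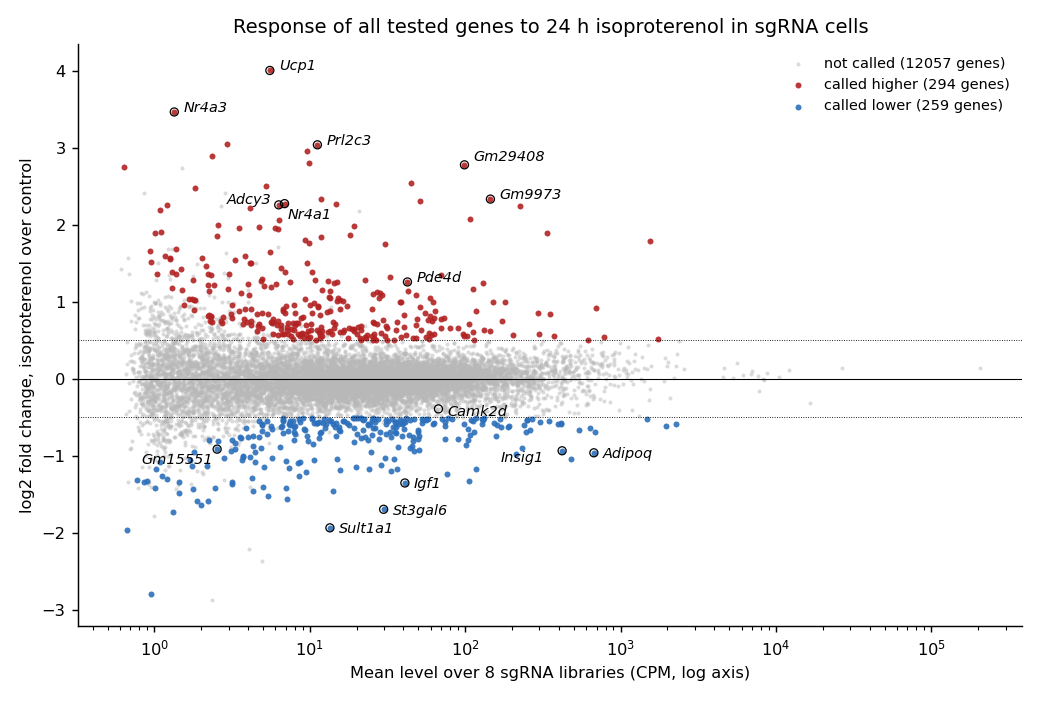
Each point is 1 of the 12610 genes tested, with its mean level over the 8 libraries in CPM on a log axis and its log2 fold change under isoproterenol on the vertical axis, and dotted lines mark the bound of 0.5. Circled genes are named in the text, from *Ucp1* at 4.01 down to *Sult1a1* at −1.94, and the called genes spread further above 0 than below it.

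By annotation, 249 of 11172 protein-coding genes rose and 242 fell. Long noncoding genes rose more often than they fell, with 30 called higher (3.88%) and 12 lower (1.55%) of 774 tested, and 10 of 361 pseudogenes rose while 2 fell. No test was made of the difference between the classes. Several raised long noncoding genes share sequence with other genes, as given below, so the same source of reads may be counted repeatedly. The share of calls also varied with the level. It was 3.37% higher and 2.16% lower between 1 and 10 CPM, and 1.84% higher and 3.05% lower above 100 CPM, where the median standard error was 0.06 on the log2 scale against 0.21 at 1 to 10 CPM.

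Receptors and their G proteins come first in the pathway. Of 14 tested genes for adrenergic receptors, their G proteins, kinases and arrestins, 0 rose and 1 fell (7.14%, against 2.05% of all genes tested). *Adrb1* and *Adrb3*, the genes of the β1 and β3 receptors, were too low to be tested. *Adrb1* had 5, 4, 9 and 6 counts in controls and 5, 9, 8 and 5 counts under isoproterenol, and *Adrb3* had 2, 1, 5 and 11 against 1, 1, 0 and 3. *Gnas*, which encodes the stimulatory G protein subunit Gsα, was at 506, 529, 433 and 445 CPM in controls against 493, 529.5, 450.1 and 444 CPM under isoproterenol (log2 fold change 0.00 ± 0.05, adjusted p = 0.973). The gene that fell was *Adra1d*, an α1-adrenergic receptor gene, at 5.09, 4.34, 9.17 and 5.02 CPM in controls against 3.97, 2.45, 4.4 and 2.99 CPM under isoproterenol (log2 fold change −0.76 ± 0.17, adjusted p = 0.0163). Its control library of replicate 5 stood well above the other controls, and without that replicate the call was lost (adjusted p = 0.136). Of 6 RGS genes, which encode GTPase activators that shut off G proteins, *Rgs3* was called lower (log2 fold change −0.64 ± 0.18, adjusted p = 0.0377), a call lost without replicate 3 (0.111), 5 (0.191) or 6 (0.107). The group did not move together: 3 of the 6 were above 0, up to 0.95 without a call, and the median was 0.15. Of the 2 secretin-type receptor genes tested, *Sctr*, the secretin receptor gene, was called lower at 1.88, 0.426, 2.33 and 3.49 CPM in controls against 0.397, 0.251, 1.26 and 0.472 CPM under isoproterenol (log2 fold change −1.73 ± 0.40, adjusted p = 0.0182), and was not called without replicate 3 (0.0925) or 6 (0.0945). *Ramp3*, which encodes a partner protein of such receptors, was too low to be tested, at 2, 2, 1 and 8 counts in controls and 15, 9, 33 and 65 counts under isoproterenol, higher in all 4 pairs.

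Of 23 tested genes for cyclases, protein kinase A subunits and anchoring proteins, 1 rose and 1 fell (4.35% each, against 2.33% and 2.05% of all genes tested), and the median was 0.04. *Adcy3*, which encodes an adenylyl cyclase, was at 3.37, 1.87, 2.5 and 1.53 CPM in the control libraries and 12, 6.33, 16.1 and 11.3 CPM in the stimulated libraries. Every stimulated library lay above every control, and the level rose 4.85-fold (log2 fold change 2.28 ± 0.20, adjusted p = 5.86e-05). *Adcy5*, another cyclase gene, was at 2.12, 1.87, 1.92 and 3.24 CPM in controls against 0.596, 1.13, 0.809 and 1.89 CPM under isoproterenol and was called lower (log2 fold change −1.06 ± 0.28, adjusted p = 0.0322), a call lost without replicate 3 (adjusted p = 0.147), 5 (0.128) or 6 (0.0619). Of 9 tested phosphodiesterase genes, 3 rose (33.3%) and 0 fell, and the median of the 9 was 0.26. *Pde4d*, which encodes a cyclic AMP-specific enzyme, was at 25.9, 23.9, 26.7 and 22.3 CPM in the control libraries and 48, 47.5, 78.5 and 67 CPM in the stimulated libraries and rose in all 4 pairs (log2 fold change 1.26 ± 0.12, adjusted p = 8.57e-05). *Pde4b*, of the same PDE4 family, was at 21.5, 18.3, 34.8 and 45.6 CPM in the control libraries and 36.8, 38.9, 77.6 and 111 CPM in the stimulated libraries (log2 fold change 1.09 ± 0.08, adjusted p = 2.29e-05). Replicates 5 and 6 carried more of it in both states, so the groups overlapped although each pair rose. *Pde10a*, which encodes an enzyme that takes both cyclic AMP and cyclic GMP, rose from 0.235, 0.17, 0.334 and 1.53 CPM to 2.28, 1.38, 3.5 and 9.2 CPM (log2 fold change 2.90 ± 0.28, adjusted p = 0.000107). Replicate 6 was above the others in both states. Without the replicate block the adjusted p was 0.311 for *Pde4b* and 0.177 for *Pde10a*, while *Adcy3* and *Pde4d* were called in that fit too.

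*Nr4a1* and *Nr4a3*, nuclear receptor genes of the NR4A family and textbook early targets of cyclic AMP, were among the largest rises 24 h after isoproterenol was added. *Nr4a2*, the other member of the family, had 3, 5, 12 and 10 counts in controls and 6, 8, 6 and 20 counts under isoproterenol and was too low to be tested. *Nr4a1* was at 2.04, 1.45, 1.83 and 3.41 CPM in the control libraries and 10.3, 6.46, 12.3 and 12.7 CPM in the stimulated libraries, a rise of 4.8-fold (log2 fold change 2.26 ± 0.17, adjusted p = 2.28e-05). *Nr4a3* was at 0.0783, 0.17, 0.25 and 0.341 CPM in the control libraries and 1.59, 1.13, 4.58 and 2.6 CPM in the stimulated libraries, and its control values stand for 1, 2, 3 and 4 counts (log2 fold change 3.47 ± 0.39, adjusted p = 0.000278). For both genes the lowest stimulated library lay above the highest control. *Sik1*, which encodes a salt-inducible kinase that acts on the CREB coactivators, was at 10.6, 12.4, 11.3 and 13.1 CPM in controls against 19.7, 20.7, 23.5 and 28 CPM under isoproterenol and rose 1.92-fold (log2 fold change 0.94 ± 0.09, adjusted p = 0.000116). *Id2*, which encodes an inhibitor of helix-loop-helix factors, rose in each pair, from 9.01, 5.2, 9.92 and 18.6 CPM to 13.7, 11.1, 24.3 and 38.3 CPM (log2 fold change 1.02 ± 0.11, adjusted p = 0.00027). The remaining 15 of 19 tested cyclic AMP-induced early genes were not called, and the median of the 19 was 0.14. *Sik1* was the member called among 16 genes for CREB family factors and their coregulators. *Atf4* was at 424, 478, 386 and 419.6 CPM in controls against 503, 505, 464 and 450 CPM under isoproterenol (log2 fold change 0.17 ± 0.06, adjusted p = 0.0765), and *Atf1* differed by 0.04 ± 0.06 (adjusted p = 0.704). Of 13 AP-1 and EGR factor genes, 1 rose. *Fosl1*, which encodes the AP-1 subunit Fra-1, was at 22.7, 26.9, 9.34 and 15.6 CPM in controls against 41.4, 38.3, 28.9 and 40.5 CPM under isoproterenol with no overlap between the groups (log2 fold change 1.05 ± 0.15, adjusted p = 0.00139), and *Jun* was at 69, 63.5, 66.9 and 53.6 CPM in controls against 54.8, 83, 60.6 and 44 CPM under isoproterenol (adjusted p = 0.673). Of 16 MAP kinase phosphatase, Sprouty and Spred genes, 0 were called by edgeR or DESeq2, and 4 had an unadjusted p under 0.05. *Klf4*, which encodes a Krüppel-like factor, was the 1 called member of 13 KLF genes (log2 fold change 0.58 ± 0.12, adjusted p = 0.0121) and was not called without replicate 3 (0.0756) or 6 (0.0562).

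**Figure D2:**
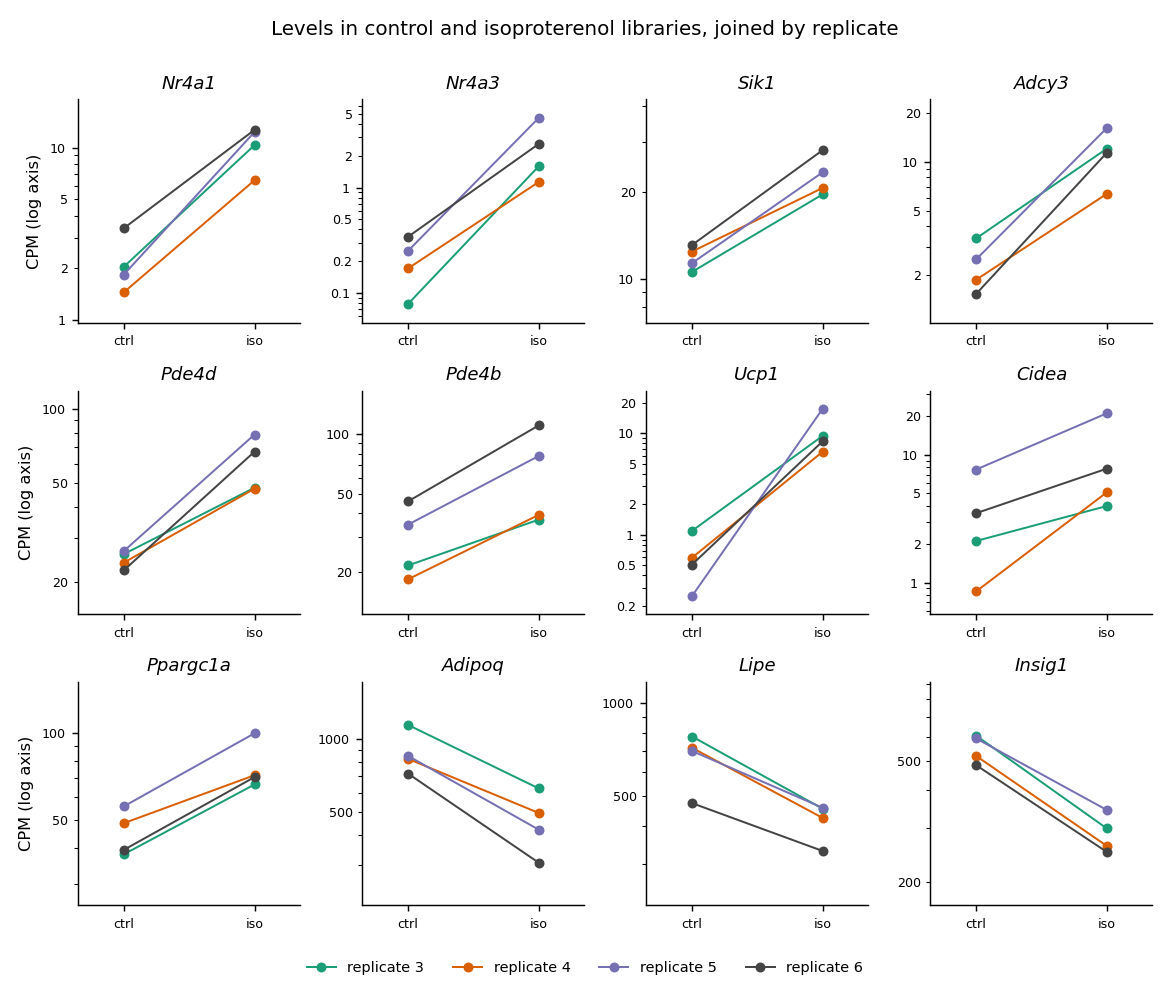
Levels of 12 genes in CPM on log axes, each line joining the control (ctrl) and the isoproterenol (iso) library of 1 replicate. *Nr4a1*, *Nr4a3*, *Sik1*, *Adcy3*, *Pde4d*, *Pde4b*, *Ucp1*, *Cidea* and *Ppargc1a* rise in all 4 pairs and *Adipoq*, *Lipe* and *Insig1* fall in all 4.

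CREB is known to bind the palindrome TGACGTCA and, less tightly, its core TGACG, so the promoters of the raised genes of the thermogenic, early, cyclase, phosphodiesterase and CREB groups were searched on both strands for these letters. Windows ran from 250 bases before to 50 bases after the RefSeq start (GRCm38.p6). Of those 14 genes, 11 had a window, 0 of them held the palindrome and 7 held the core, 13 times in all. All of these cores are shown in 9 stretches of the promoters, on the gene's strand, with each TGACG or its reverse complement CGTCA in capitals and stretches that overlap joined.
Fgf21, chr7:45615534-45615578, minus strand: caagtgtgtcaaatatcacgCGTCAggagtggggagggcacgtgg
Gk, chrX:85776799-85776843, minus strand: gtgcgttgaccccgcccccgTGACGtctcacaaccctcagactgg
Nr4a1, chr15:101266596-101266657, plus strand: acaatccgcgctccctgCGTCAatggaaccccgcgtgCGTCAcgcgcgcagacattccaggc
Nr4a1, chr15:101266757-101266830, plus strand: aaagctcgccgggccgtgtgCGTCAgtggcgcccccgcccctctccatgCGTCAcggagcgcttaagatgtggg
Nr4a3, chr4:48045055-48045124, plus strand: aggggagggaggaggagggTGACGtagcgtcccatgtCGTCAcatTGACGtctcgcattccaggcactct
Nr4a3, chr4:48045138-48045182, plus strand: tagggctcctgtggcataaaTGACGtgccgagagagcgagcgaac
Pde4b, chr4:102421501-102421545, plus strand: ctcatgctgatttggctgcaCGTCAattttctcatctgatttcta
Ppargc1a, chr5:51567750-51567794, minus strand: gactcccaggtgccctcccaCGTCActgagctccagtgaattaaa
Ucp1, chr8:83290181-83290225, plus strand: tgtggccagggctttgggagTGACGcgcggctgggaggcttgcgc
The core is common. It was in 31.4% of the windows of called higher genes, 27.3% of those of called lower genes and 36.7% of the 9366 tested genes with a window, against 20.8% of all 32851 windows of the reference table. The palindrome was in 6 of 204 windows of called higher genes (2.94%), in 3 of 183 of called lower genes (1.64%) and in 350 of the 9366 tested genes (3.74%), against 1.79% of all windows. Because the palindrome contains the core, the counts are nested. Neither set of letters was more frequent among the raised genes than among the genes tested, and a match is a description of the letters, not of binding. The 6 raised genes with the palindrome were *Abcg2*, *C030037D09Rik*, *Ltbp1*, *Snhg15*, *Spag4* and *Tubb2a*. Those with the larger rises had these windows, with the palindrome in capitals.
Spag4, chr2:156065156-156065203, plus strand: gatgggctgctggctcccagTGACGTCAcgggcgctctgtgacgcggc
Tubb2a, chr13:34078040-34078087, minus strand: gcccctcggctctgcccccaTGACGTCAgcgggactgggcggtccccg
*Spag4* was at 1.1, 0.937, 1.25 and 0.852 CPM in controls against 2.78, 1.69, 1.98 and 1.73 CPM under isoproterenol (log2 fold change 0.97 ± 0.27, adjusted p = 0.0421) and *Tubb2a*, a β-tubulin gene, at 39.2, 32.9, 44.6 and 53.5 CPM in controls against 65.7, 56.6, 91.1 and 75.4 CPM under isoproterenol (log2 fold change 0.76 ± 0.08, adjusted p = 0.000219). These genes were picked for their letters after the calls were known. The letters AAAGGTCA, to which NR4A receptors bind as monomers, were in 4 of the 204 windows of called higher genes (1.96%) and in 1.2% of the tested genes.

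The thermogenic genes of brown fat rose in part. Of 19 tested, 6 were called higher (31.6%, against 2.33% of all genes tested) and 0 lower, with a median of 0.30. *Ucp1* showed the largest rise of any gene named here. It was at 1.1, 0.596, 0.25 and 0.511 CPM in the control libraries and 9.43, 6.58, 17.4 and 8.34 CPM in the stimulated libraries, so that the lowest stimulated library lay above the highest control, and rose 16.1-fold (log2 fold change 4.01 ± 0.33, adjusted p = 3.7e-05). Its level remained low in the stimulated libraries, at a mean of 10.45 CPM ± 4.8 (SD, n = 4), and was highest in replicate 5. *Ppargc1a*, which encodes the coactivator PGC-1α of mitochondrial biogenesis, was at 38.1, 48.7, 55.7 and 39.4 CPM in the control libraries and 66.2, 71.3, 99.5 and 70.2 CPM in the stimulated libraries and rose 1.69-fold without overlap (log2 fold change 0.75 ± 0.07, adjusted p = 6.03e-05). *Cidea*, which encodes a lipid droplet protein of brown adipocytes, was at 2.12, 0.852, 7.67 and 3.49 CPM in controls against 3.97, 5.08, 21.1 and 7.79 CPM under isoproterenol (log2 fold change 1.44 ± 0.21, adjusted p = 0.0014). It rose in each pair, but replicate 5 lay above the others in both states and the groups overlapped. *Fgf21*, which encodes a secreted metabolic factor, was at 73.6, 105, 70 and 74.1 CPM in controls against 114, 149, 143 and 122 CPM under isoproterenol with no overlap (log2 fold change 0.72 ± 0.08, adjusted p = 0.000252). *Cpt1b*, which encodes the muscle form of the carnitine palmitoyltransferase of the outer mitochondrial membrane, was at 11.7, 11.2, 13.7 and 14 CPM in controls against 14.6, 12.4, 31 and 24.1 CPM under isoproterenol (log2 fold change 0.64 ± 0.15, adjusted p = 0.0202), a call lost without replicate 5 (adjusted p = 0.117) or 6 (0.0684). Of its 31-base stretches 79.7% also occur in another annotated gene, *Gm44502*, so its reads may be divided and its level is uncertain. The remaining raised member was *Gk*, the glycerol kinase gene. *Dio2*, which encodes the deiodinase that activates thyroid hormone, had 1 count over the 8 libraries and was not tested. Without the replicate block, 1 of the 6 was called, *Ucp1*.

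Mature adipocyte markers moved the other way. Of 14 tested, 0 rose and 7 fell (50%, against 2.05% of all genes tested), 13 had a log2 fold change below 0 and the median was −0.51. *Adipoq*, which encodes the hormone adiponectin, was at 1141, 827, 850.2 and 718 CPM in the control libraries and 624, 494, 422 and 308 CPM in the stimulated libraries. All stimulated libraries lay below all controls, at 1.95-fold less (log2 fold change −0.96 ± 0.08, adjusted p = 3.03e-05). *Cfd*, the complement factor D (adipsin) gene, fell in each pair, from 137, 68.6, 221 and 176 CPM to 46.4, 32.9, 94.5 and 64.8 CPM (log2 fold change −1.32 ± 0.08, adjusted p = 4.78e-06). *Lipe* and *Pnpla2*, the genes of hormone-sensitive lipase and adipose triglyceride lipase, were at 779.7, 717, 700 and 474 CPM in controls against 455, 425, 458 and 332 CPM under isoproterenol (log2 fold change −0.67 ± 0.06, adjusted p = 8.52e-05) and at 879, 703, 873 and 624 CPM in controls against 539, 397, 613 and 434 CPM under isoproterenol (log2 fold change −0.64 ± 0.07, adjusted p = 0.000172). In both the groups did not overlap. *Plin1*, which encodes the perilipin that coats adipocyte lipid droplets, was at 457, 398, 478 and 292 CPM in controls against 315, 292, 338 and 182 CPM under isoproterenol (log2 fold change −0.54 ± 0.06, adjusted p = 0.000196), and without replicate 6 its change came within the bound of 0.5. *Adig*, the adipogenin gene, also fell. *Fabp4*, given above, was lower in each pair but did not pass the test (log2 fold change −0.31 ± 0.11, adjusted p = 0.0889). The summed level of the markers was 32100, 32210, 30200 and 25790 CPM in controls and 28460, 29080, 25060 and 17300 CPM under isoproterenol, lowest in the stimulated library of replicate 6. Leaving that replicate out gave 6 called members and a median of −0.47. In bulk RNA, fewer adipocytes and less RNA of these genes in each adipocyte cannot be told apart. None of the 7 was called without the replicate block.

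Of 25 tested transcription factor genes of adipogenesis, 0 rose and 2 fell (8%, against 2.05% of all genes tested). Leaving out replicate 6 gave 4 called members, and leaving out replicate 3 or 4 gave 1. *Pparg*, the nuclear receptor gene on which adipocyte differentiation depends, was at 171, 158, 143 and 137 CPM in the control libraries and 151, 147, 156 and 144 CPM in the stimulated libraries (log2 fold change −0.02 ± 0.06, adjusted p = 0.869). *Cebpa*, which encodes its partner C/EBPα, was lower in each pair, from 339.5, 289.7, 422 and 226 CPM to 211, 209, 282 and 118 CPM (log2 fold change −0.67 ± 0.07, adjusted p = 0.000252). *Srebf1*, which encodes the lipogenic factor SREBP1, was at 159.7, 140.5, 177 and 138 CPM in controls against 101, 93.2, 136 and 106 CPM under isoproterenol and lay close to the bound (log2 fold change −0.50 ± 0.06, adjusted p = 0.000665). Its change was within the bound without replicate 3 or 4 and with RLE scaling. *Lep*, the leptin gene, had 1 count over the 8 libraries.

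Genes of lipid synthesis lay mostly below 0. Of 36 genes of fatty acid and triglyceride synthesis, 10 fell (27.8%) and 2 rose, 30 were below 0, 23 were lower with an adjusted p under 0.05, and the median was −0.27. *Fads2*, a fatty acid desaturase gene, was at 26.9, 36.3, 34.1 and 35.2 CPM in the control libraries and 14, 15.4, 12.9 and 16.4 CPM in the stimulated libraries (log2 fold change −1.17 ± 0.09, adjusted p = 2.39e-05). The highest stimulated library was well below the lowest control. *Insig1*, which encodes the endoplasmic reticulum protein that retains SREBP factors, was at 606, 519.9, 594 and 485 CPM in the control libraries and 299.9, 263, 345 and 251 CPM in the stimulated libraries (log2 fold change −0.93 ± 0.06, adjusted p = 5.87e-06), again without overlap. *Fasn*, the fatty acid synthase gene, named after its values were seen, was at 292, 219, 407 and 292 CPM in controls against 147, 106, 218 and 186 CPM under isoproterenol (log2 fold change −0.90 ± 0.07, adjusted p = 2.52e-05), and *Thrsp*, *Fads1*, *Mid1ip1*, *Gpd1* and *Slc25a1* fell as well. *Pnpla3*, which encodes a lipase-like protein of lipid droplets, was at 0.705, 0.937, 4.58 and 3.15 CPM in controls against 0.298, 0.376, 2.97 and 0.944 CPM under isoproterenol (log2 fold change −1.14 ± 0.30, adjusted p = 0.0325), and this call was lost without replicate 3 (adjusted p = 0.0863), 5 (0.063) or 6 (0.141). The genes that rose were *Pck1* and *Lpin3*. *Pck1*, which encodes the phosphoenolpyruvate carboxykinase of glyceroneogenesis, rose in each pair from 24.8, 21.3, 37.9 and 16.4 CPM to 45.7, 37.5, 83.7 and 37 CPM (log2 fold change 1.00 ± 0.08, adjusted p = 2.88e-05). In the cholesterol pathway 7 of 28 genes fell and 0 rose, with a median of −0.18. *Mvd*, which encodes the mevalonate pyrophosphate decarboxylase, was at 31, 33.1, 29.7 and 26.7 CPM in controls against 18.2, 16.6, 19.8 and 15.4 CPM under isoproterenol (log2 fold change −0.79 ± 0.09, adjusted p = 0.000242). *Acat2*, an acetyl-CoA acetyltransferase gene, and *Dhcr7*, a reductase gene of the last steps, fell by 0.74 and 0.73 on the log2 scale without overlap. *Nsdhl*, *Cyp51*, *Fdft1* and *Insig1*, which is counted in both groups, were the others. Without the block, 2 genes of each of these groups were called, with *Insig1* among them in both.

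Genes of lipid droplets and lipolysis split in direction. Of 23 tested, 5 rose and 7 fell. Besides *Cidea*, *Hilpda*, which encodes an inhibitor of adipose triglyceride lipase, rose from 41.8, 53.1, 32.4 and 27.3 CPM to 86.5, 106, 61.6 and 64.5 CPM with no overlap (log2 fold change 1.05 ± 0.07, adjusted p = 5.91e-06). *Plin5*, which encodes a perilipin of oxidative tissues, was at 3.68, 3.32, 6 and 6.64 CPM in controls against 5.46, 7.09, 14.7 and 8.89 CPM under isoproterenol (log2 fold change 0.85 ± 0.17, adjusted p = 0.00789), and was not called without replicate 5 (adjusted p = 0.0721). *Cideb* and *Lipa* also rose. Besides *Lipe*, *Pnpla2*, *Plin1* and *Pnpla3*, those that fell were *Aqp7*, which encodes a glycerol channel, *Ces1d*, and *G0s2*, which encodes another inhibitor of adipose triglyceride lipase. Of 16 tested genes of fatty acid uptake and binding, 2 rose and 5 fell. *Slc27a1*, which encodes the fatty acid transport protein FATP1, was at 66.1, 40.7, 49.4 and 30.1 CPM in the control libraries and 23.8, 17.7, 24.4 and 14.5 CPM in the stimulated libraries (log2 fold change −1.19 ± 0.09, adjusted p = 1.78e-05), below every control. *Cav1*, the caveolin-1 gene, was at 519, 461, 419.5 and 506 CPM in controls against 308, 304, 303 and 355 CPM under isoproterenol (log2 fold change −0.58 ± 0.06, adjusted p = 0.000176), and *Cavin1*, *Acsl1* and *Fabp5* were also called lower. *Acsl4*, which encodes an acyl-CoA synthetase with a preference for arachidonate, rose without overlap from 63.6, 85.1, 68.5 and 63.7 CPM to 107, 121, 103 and 110 CPM (log2 fold change 0.66 ± 0.06, adjusted p = 9.72e-05). *Lrp1*, a lipoprotein receptor gene, was at 34.9, 45, 45.5 and 64.5 CPM in controls against 48.2, 45.4, 68.8 and 148 CPM under isoproterenol (log2 fold change 0.59 ± 0.15, adjusted p = 0.0246). Replicate 6 carried that difference: without it the log2 fold change was 0.36 and the adjusted p 0.0596, and the call was also lost without replicate 3 (0.0659) or 5 (0.104).

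**Figure D3:**
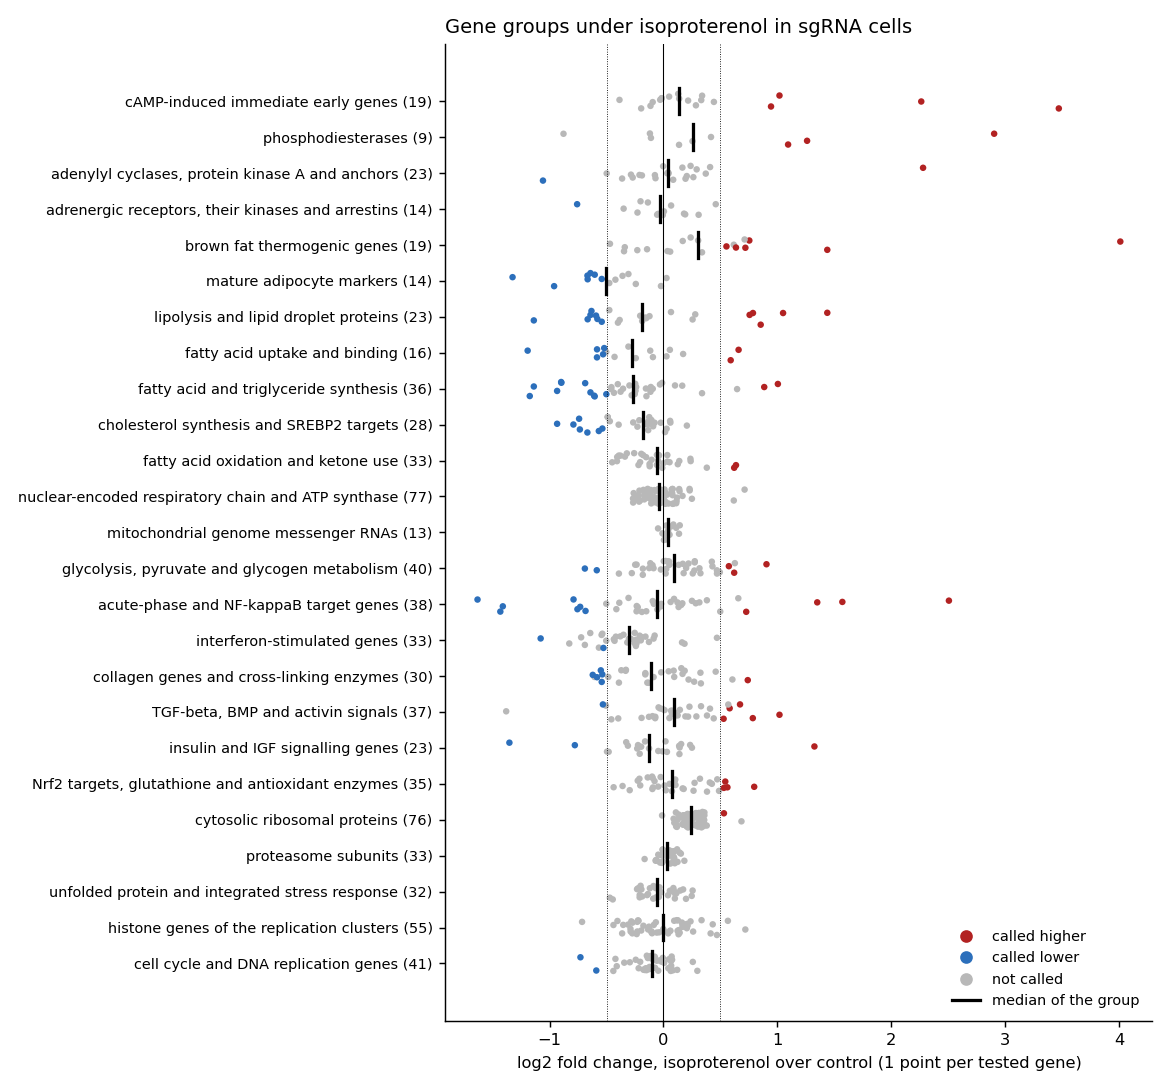
Each point is a tested gene of 1 of 25 groups out of 49 (number of tested genes in brackets), placed by its log2 fold change under isoproterenol, with the median as a black bar and the bound of 0.5 dotted. The medians of adipocyte markers (−0.51), interferon-stimulated genes (−0.30) and lipid synthesis (−0.27) lie left of 0, and those of thermogenic genes (0.30), phosphodiesterases (0.26) and ribosomal proteins (0.24) lie right of it.

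The respiratory chain itself was not among the groups that moved. Of 77 nuclear genes for its subunits and for ATP synthase, 0 were called by edgeR or DESeq2, 23 had an unadjusted p under 0.05 (26.8% of all genes tested did), and the median was −0.04. *Cox4i1*, which encodes a subunit of cytochrome c oxidase, was at 1430, 1366, 1542 and 1373 CPM in controls against 1460, 1540, 1580 and 1098 CPM under isoproterenol (log2 fold change −0.02 ± 0.08). Of the 13 messenger RNAs of the mitochondrial genome, 0 were called by edgeR or DESeq2 and 0 had an unadjusted p under 0.05, with changes between −0.05 and 0.14 and a median of 0.04. *COX1*, the gene of cytochrome c oxidase subunit 1, was at 23040, 23790, 27190 and 27380 CPM in controls against 29000, 30380, 27490 and 25030 CPM under isoproterenol. The summed level of the 13 was 81950, 79100, 106100 and 102200 CPM in controls and 103400, 95670, 102200 and 84650 CPM under isoproterenol, higher in 2 pairs and lower in 2. Of 33 genes of fatty acid oxidation and ketone use, 2 rose (6.06%, against 2.33% of all genes tested) and 0 fell, and the median was −0.06. Leaving out replicate 4 gave 4 called members, and leaving out replicate 5 gave 1. With no bound, 3 were higher and 8 lower with an adjusted p under 0.05. *Pdk4*, which encodes the kinase that switches pyruvate dehydrogenase off, was at 106, 88.6, 133 and 122 CPM in controls against 144, 132, 230.5 and 191 CPM under isoproterenol and rose in each pair (log2 fold change 0.62 ± 0.06, adjusted p = 0.000172), and *Cpt1b* was the other. Among 24 regulators of mitochondrial biogenesis and dynamics *Ppargc1a* was the 1 called gene. *Bnip3*, a mitophagy receptor gene, had an adjusted p of 0.0138 with a change of −0.26 ± 0.06, within the bound. Of 8 genes of creatine and calcium cycling, *Alpl*, the tissue-nonspecific alkaline phosphatase gene, was called higher at 36.5, 34, 44.4 and 41.6 CPM in controls against 67.9, 61.2, 83.7 and 70.2 CPM under isoproterenol, with no overlap and in the fit without the block too (log2 fold change 0.85 ± 0.06, adjusted p = 1.22e-05). *Atp2a2*, the calcium pump gene SERCA2, differed by 0.09 ± 0.09 (adjusted p = 0.597).

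Of 40 genes of glycolysis, pyruvate and glycogen metabolism, 3 rose and 2 fell. The count of called members depended on replicate 4, and was 10 in both directions together without it. With no bound, 13 were higher and 3 lower with an adjusted p under 0.05, where 6.34% and 6.24% of all genes tested were. *Ldhb*, which encodes the B subunit of lactate dehydrogenase, was at 12.8, 11.2, 10.7 and 8.69 CPM in the control libraries and 22.5, 21.1, 24 and 14.1 CPM in the stimulated libraries with no overlap (log2 fold change 0.90 ± 0.10, adjusted p = 0.000248). *Hk1*, a hexokinase gene, and *Pdk4* were the other rises. *Pcx*, which encodes pyruvate carboxylase and so links pyruvate to lipid synthesis, was at 844, 777, 1078 and 700.1 CPM in controls against 508, 459, 692 and 453 CPM under isoproterenol and lay lower in all stimulated libraries (log2 fold change −0.69 ± 0.05, adjusted p = 3.03e-05). *Pygb*, a glycogen phosphorylase gene, fell in each pair (log2 fold change −0.59 ± 0.07, adjusted p = 0.000278). Of 24 transporters for glucose, amino acids and monocarboxylates, 0 rose and 3 fell. *Slc1a3*, a glutamate transporter gene, was at 75.2, 62.5, 55.6 and 43 CPM in controls against 37.3, 33.3, 34.1 and 23.9 CPM under isoproterenol (log2 fold change −0.87 ± 0.07, adjusted p = 2.66e-05). *Slc1a5*, a glutamine transporter gene, differed by −0.61 ± 0.06 and *Slc7a5*, which carries large neutral amino acids, by −0.52 ± 0.11. The call of *Slc7a5* was lost without replicate 4, where the change came within the bound, or 5 (adjusted p = 0.0553).

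Among secreted factors, 3 of 20 adipokines and related genes rose and 3 fell. *Igf1*, which encodes insulin-like growth factor 1, was at 86.9, 55.3, 45.1 and 48.9 CPM in the control libraries and 28.7, 25.2, 17.7 and 19.4 CPM in the stimulated libraries, a 2.55-fold fall without overlap (log2 fold change −1.35 ± 0.08, adjusted p = 4.85e-06) that was also called without the block. *Adipoq* and *Cfd* were the other falls. *Il6*, the interleukin-6 gene, rose from 1.1, 0.596, 0.584 and 1.79 CPM to 3.08, 3.83, 1.26 and 3.85 CPM (log2 fold change 1.57 ± 0.30, adjusted p = 0.0072), with a smaller difference in replicate 5, and *Metrnl* and *Fgf21* rose too. Of 23 genes of insulin and IGF signalling, 1 rose and 2 fell. *Socs2*, which encodes a suppressor of cytokine and growth hormone signalling, was at 18.6, 16.2, 17.3 and 21.5 CPM in controls against 40.9, 35.3, 66.1 and 46 CPM under isoproterenol, with no overlap (log2 fold change 1.32 ± 0.13, adjusted p = 0.000115). *Pik3r1*, which encodes the regulatory subunit p85α of phosphoinositide 3-kinase, was at 105, 86.6, 139 and 123 CPM in controls against 52.9, 47.7, 81.3 and 86.2 CPM under isoproterenol (log2 fold change −0.78 ± 0.07, adjusted p = 0.000107), and all its stimulated libraries lay below the controls.

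Acute-phase and NF-κB target genes moved in both directions, 4 of 38 higher and 7 lower. *Slpi*, which encodes a secreted protease inhibitor, was at 2.04, 2.3, 0.667 and 0.852 CPM in the control libraries and 15.2, 15.3, 1.44 and 3.85 CPM in the stimulated libraries (log2 fold change 2.50 ± 0.24, adjusted p = 0.000105). It rose in each pair, but its level was several times higher in replicates 3 and 4 than in 5 and 6, and without the block the adjusted p was 0.188. *Hpx*, the hemopexin gene, and *Ptgs2* rose as well. *Serpina3c*, a serpin gene, was at 2.58, 1.87, 4.33 and 3.32 CPM in controls against 1.19, 0.502, 0.719 and 1.5 CPM under isoproterenol (log2 fold change −1.63 ± 0.30, adjusted p = 0.00557), and *C3*, *Cp*, *Hp*, *Saa3* and *Steap4* also fell. *Cxcl12*, a chemokine gene, was at 0.47, 0.426, 2.17 and 7.92 CPM in controls against 0.397, 0.439, 0.899 and 1.5 CPM under isoproterenol (log2 fold change −1.43 ± 0.41, adjusted p = 0.0459). The pairs of replicates 5 and 6 differed and those of 3 and 4 barely did, and the call was lost without replicate 3 (adjusted p = 0.0575), in DESeq2 (0.244), with all 16 libraries in the fit (0.0761) and in the fit with rRNA content as an added term (0.0853). Without replicate 5 or 6 the gene did not pass the filter on low counts. Of 33 interferon-stimulated genes, 30 were below 0 with a median of −0.30, and 0 rose while 2 fell. *Gbp3*, which encodes a guanylate-binding protein, was at 7.44, 9.12, 3.17 and 3.32 CPM in controls against 2.28, 8.4, 0.629 and 1.34 CPM under isoproterenol (log2 fold change −1.08 ± 0.30, adjusted p = 0.0418), with the least difference in replicate 4 and no call without replicate 3 (0.2), 5 (0.149) or 6 (0.0963). Its log2 fold change ranged from −1.705 without replicate 4 to −0.85 without replicate 5. *Iigp1*, an interferon-inducible GTPase gene, was at 6.11, 4.69, 1.5 and 1.28 CPM in controls against 0.596, 2.13, 0.629 and 0.787 CPM under isoproterenol (log2 fold change −1.59 ± 0.37, adjusted p = 0.0198), and was not called without replicate 3 (0.0943, log2 fold change −1.03) or 5 (0.0626). The interferon group depended on replicate 4: without it the median was −0.53 and 6 members were called, and without replicate 3 the median was −0.15 and 0 were called. The summed level of these genes was 945.9, 945, 656.9 and 684.6 CPM in controls and 606.3, 919.1, 525.5 and 557.4 CPM under isoproterenol, so the pair of replicate 4 differed least.

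Of 14 tested prostaglandin genes, *Ptgs2*, which encodes the inducible cyclooxygenase, rose in each pair from 20.6, 19.9, 14.3 and 22.8 CPM to 34.7, 33.9, 20.6 and 40.3 CPM (log2 fold change 0.73 ± 0.08, adjusted p = 0.000231). *Ptgis*, the prostacyclin synthase gene, was called lower (log2 fold change −1.34 ± 0.35, adjusted p = 0.0336), a call lost without replicate 3 (0.154), 4 (0.0786) or 5 (0.165). Of 37 genes of TGF-β, BMP and activin signals, 5 rose and 1 fell. *Fstl1*, a follistatin-like gene, rose in each pair, from 31.7, 29.8, 16.8 and 48 CPM to 48, 49.7, 29.8 and 71.3 CPM (log2 fold change 0.67 ± 0.07, adjusted p = 0.000152). *Inhba*, which encodes the activin A subunit, was at 3.29, 2.47, 3.92 and 7.92 CPM in controls against 6.85, 6.84, 6.11 and 9.05 CPM under isoproterenol (log2 fold change 0.78 ± 0.20, adjusted p = 0.0287) and was not called without replicate 3 (0.122), 4 (0.058) or 5 (0.0869). *Fst*, the follistatin gene, was called at 0.58 ± 0.17 and lost its call without replicate 5 (0.285) or 6 (0.166). *Id2* and *Ltbp1* were the other rises and *Chrdl1* the fall. Of 12 Wnt pathway genes tested, *Fzd4*, a Frizzled receptor gene, fell in each pair, from 28.7, 24.9, 38.6 and 21.8 CPM to 19.9, 13.6, 27 and 15.7 CPM (log2 fold change −0.60 ± 0.09, adjusted p = 0.00161). *Lrp6*, the coreceptor gene, differed by −0.08 ± 0.07 (adjusted p = 0.531).

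Genes of the matrix were called in both directions. Of 30 collagen genes and cross-linking enzymes, 1 rose (3.33%) and 5 fell (16.7%), where 2.33% and 2.05% of all genes tested did. *Col27a1*, a fibrillar collagen gene, was at 24.2, 27.8, 33.5 and 22.5 CPM in controls against 44.7, 44.8, 57.7 and 33.9 CPM under isoproterenol with no overlap (log2 fold change 0.74 ± 0.07, adjusted p = 0.000105). *Col6a2*, which encodes a chain of collagen VI, was at 240, 204, 205 and 176 CPM in controls against 135, 112, 137 and 154 CPM under isoproterenol (log2 fold change −0.62 ± 0.10, adjusted p = 0.00224), and *Col1a2*, *Col4a2*, *Col4a5* and *Col5a1* fell too. Of these, *Col4a5* was not called without replicate 3 (adjusted p = 0.0697) or 6 (0.0635), and *Col5a1* came within the bound without replicate 5. Of 23 metalloproteinases, ADAMTS genes and their inhibitors, 2 rose and 1 fell. With replicate 4 left out, 5 were called. *Timp1*, the inhibitor gene, was at 8.69, 8.01, 4 and 8.69 CPM in controls against 15.6, 14.9, 7.55 and 14.9 CPM under isoproterenol (log2 fold change 0.85 ± 0.10, adjusted p = 0.000413), with replicate 5 lowest in both states. *Plaur*, the urokinase receptor gene, was called higher (log2 fold change 0.68 ± 0.16, adjusted p = 0.0187) but not without replicate 3 (0.0854) or 5 (0.0887). *Adamts12*, a secreted metalloproteinase gene, was at 8.3, 6.99, 5.33 and 4.94 CPM in controls against 2.38, 2.57, 1.98 and 2.2 CPM under isoproterenol (log2 fold change −1.46 ± 0.18, adjusted p = 0.000443), lower in all stimulated libraries and called without the block.

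Among 13 preadipocyte and fibroblast markers, 3 were called higher and 0 lower, with a median of 0.10. *Ly6a*, the gene of the progenitor antigen Sca-1, was at 11.5, 17.3, 3.08 and 35 CPM in the control libraries and 22.2, 43.3, 9.97 and 61.2 CPM in the stimulated libraries (log2 fold change 1.11 ± 0.12, adjusted p = 0.000248). The replicates differed by far more than the treatment, and the unblocked adjusted p was 0.652. *Ly6c1*, a neighbouring gene of the same family that shares sequence with it, rose by 0.59 ± 0.12 and was not called without replicate 3 (0.0524). *Sox9*, a transcription factor gene of progenitors, was called higher (log2 fold change 0.82 ± 0.23, adjusted p = 0.0444) but not without replicate 3 (0.14), 5 (0.151) or 6 (0.121). The summed level of the markers was 553.9, 508.5, 524.7 and 852 CPM in controls and 627.6, 607.1, 547.6 and 840.7 CPM under isoproterenol, higher in 3 of 4 pairs. The part of this list in the falls of the adipocyte markers was not tested. Of 14 smooth muscle genes, *Mylk*, the myosin light chain kinase gene, rose (log2 fold change 0.75 ± 0.10, adjusted p = 0.00083). *Tagln*, the transgelin gene, was at 1.41, 0.511, 1 and 5.19 CPM in controls against 0.298, 0.188, 0.359 and 2.6 CPM under isoproterenol (log2 fold change −1.35 ± 0.33, adjusted p = 0.0223), a call lost without replicate 3 (0.105) or 5 (0.0813).

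Cytosolic ribosomal protein genes shifted together by a small amount. Of 76, 75 had a log2 fold change above 0, the median was 0.24 and 51 were higher with an adjusted p under 0.05 (6.34% of all genes tested were), while 1 passed the bound and 0 were lower. *Rpl5*, a large subunit protein gene, was that 1, at 46.1, 39.4, 35.4 and 36.7 CPM in controls against 58.2, 63.1, 46.5 and 59.8 CPM under isoproterenol (log2 fold change 0.53 ± 0.08, adjusted p = 0.00144), and came within the bound without replicate 4 or 6. *Rplp0*, the gene of the stalk protein P0, was at 2477, 2375, 1690 and 2021 CPM in controls against 2846, 2720, 1882 and 2179 CPM under isoproterenol (log2 fold change 0.16 ± 0.06, adjusted p = 0.098), and *Rpsa* at 2241, 2153, 1393 and 1658 CPM in controls against 2504, 2517, 1614 and 1767 CPM under isoproterenol (log2 fold change 0.17 ± 0.06, adjusted p = 0.0864). The summed level of the 76 was 44490, 44450, 31590 and 35340 CPM in controls and 52970, 55110, 37380 and 38110 CPM under isoproterenol, higher in all 4 pairs. The spread between replicates was larger than the shift, so the groups overlapped. Leaving out any 1 replicate gave medians of 0.23 to 0.28. As a contrast, 33 proteasome subunit genes had a median of 0.03, with 0 called by edgeR or DESeq2 and 4 with an unadjusted p under 0.05. Of 32 genes of the unfolded protein and integrated stress response, 0 were called by either tool and 12 had an unadjusted p under 0.05. *Hspa5*, the chaperone gene BiP, was at 616, 722, 639.6 and 621 CPM in controls against 724, 760, 697 and 630.4 CPM under isoproterenol (adjusted p = 0.242).

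**Figure D4:**
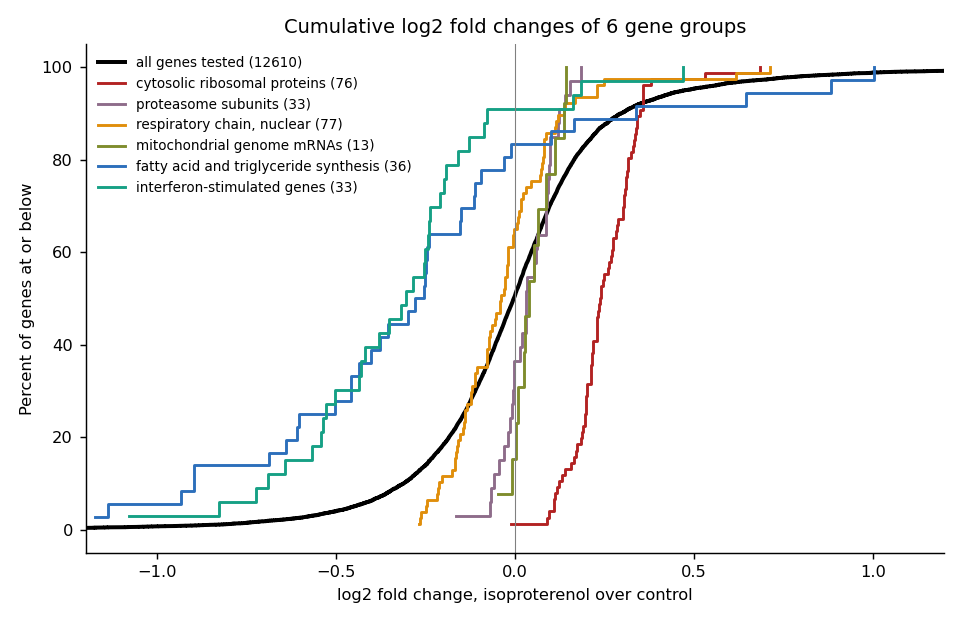
Cumulative log2 fold changes of all 12610 tested genes (black) and of 6 gene groups, drawn between −1.2 and 1.2, with the number of genes in brackets. The curve of the 76 ribosomal protein genes lies right of 0 almost entirely, with its median at 0.24, the curves of lipid synthesis and interferon-stimulated genes lie to the left, and the proteasome and mitochondrial genome curves rise steeply near 0.

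Of 35 Nrf2 targets and antioxidant genes, 4 rose and 0 fell. *Gclc*, which encodes the catalytic subunit of the rate-limiting enzyme of glutathione synthesis, was at 42.2, 44.4, 44.8 and 51 CPM in the control libraries and 69.2, 64.5, 86 and 101 CPM in the stimulated libraries, without overlap and called without the block (log2 fold change 0.80 ± 0.08, adjusted p = 0.000118). *Srxn1*, the sulfiredoxin gene, rose in each pair by 0.56 ± 0.06. *Mt1*, a metallothionein gene, was at 505, 666, 592 and 802 CPM in controls against 831, 858, 830.2 and 1213 CPM under isoproterenol and *Prdx6*, a peroxiredoxin gene, at 37.4, 38.5, 34.8 and 41 CPM in controls against 57.1, 49.4, 55.2 and 57.7 CPM under isoproterenol. Both lay above all controls, by 0.54 ± 0.07 and 0.53 ± 0.07, and came within the bound without replicate 3 for *Mt1* and without replicate 5 for *Prdx6*. Of 38 autophagy and lysosome genes, *Ctsl*, a cathepsin gene, rose in each pair (log2 fold change 0.55 ± 0.07, adjusted p = 0.000555), and *Ctsb* and *Lamp1* differed by −0.03 ± 0.05 and 0.05 ± 0.06 (adjusted p = 0.736 and 0.657).

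Of 41 genes of the cell cycle and DNA replication, 0 rose and 2 fell (4.88%, against 2.05% of all genes tested). *Cdkn2a*, which encodes the inhibitors p16 and p19Arf, was at 127, 122, 139.5 and 144 CPM in controls against 72.2, 100.5, 83.8 and 67.1 CPM under isoproterenol with no overlap, and was called without the block too (log2 fold change −0.73 ± 0.11, adjusted p = 0.00147). *Cdkn2b*, the p15 gene beside it, was called lower at −0.59 ± 0.12 but not without replicate 3 (0.0687). Of 55 replication-cluster histone genes, 0 were called by edgeR or DESeq2 and 5 had an unadjusted p under 0.05. Of these, *H2bc4* (log2 fold change −0.40 ± 0.07, adjusted p = 0.0035) and *H1f2* (log2 fold change −0.31 ± 0.09, adjusted p = 0.0479) were lower with an adjusted p under 0.05 and lay within the bound. Of 20 circadian clock genes, *Rorb*, which encodes an orphan nuclear receptor, rose in each pair from 3.29, 3.83, 6.59 and 10.7 CPM to 7.45, 7.09, 17.1 and 30.4 CPM (log2 fold change 1.28 ± 0.12, adjusted p = 0.000116), with replicates 5 and 6 above 3 and 4 in both states, and *Clock* was at 118, 130.3, 145 and 138 CPM in controls against 123, 135, 149.9 and 146 CPM under isoproterenol (adjusted p = 0.488). Of 11 retinoid genes, 3 fell and 0 rose. *Aldh1a7*, a retinaldehyde dehydrogenase-like gene, was at 60, 58.1, 95.5 and 216 CPM in the control libraries and 27.1, 24.1, 44.8 and 82 CPM in the stimulated libraries and fell 2.35-fold (log2 fold change −1.23 ± 0.07, adjusted p = 2.07e-06). *Aldh1a1*, its paralog, was at 1.65, 0.937, 5.83 and 29.1 CPM in controls against 0.397, 0.314, 3.23 and 14.8 CPM under isoproterenol (log2 fold change −1.06 ± 0.18, adjusted p = 0.00338). Replicate 6 was highest for both genes in both states. The pair share 281 stretches of 31 bases, over which salmon may divide reads. *Dhrs3*, which encodes a retinaldehyde reductase, differed by −0.59 ± 0.07.

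Of 11 calmodulin-dependent kinase and calmodulin genes, the group to which *Camk2d* belongs, 0 were called by edgeR or DESeq2, 3 had an unadjusted p under 0.05, and *Camk2d* was the 1 with an adjusted p under 0.05. The list for catecholamine uptake and breakdown had 5 tested genes, and it also held *Renbp*, the renin-binding protein gene. Of the 5, *Sult1a1*, which encodes a phenol sulfotransferase, was called, and it fell most of all genes named here. It was at 15, 11.6, 29 and 30.1 CPM in the control libraries and 3.28, 3.64, 7.91 and 7.32 CPM in the stimulated libraries, a fall of 3.82-fold with no overlap (log2 fold change −1.94 ± 0.11, adjusted p = 3.1e-06). *Maoa*, a monoamine oxidase gene, differed by 0.30 ± 0.09 (adjusted p = 0.0637). The 6 ST3Gal sialyltransferase genes, which encode enzymes that put sialic acid on galactose, held a fall and a rise. *St3gal6* was at 62.9, 36.2, 48.8 and 35.5 CPM in the control libraries and 14.2, 11.1, 16 and 14.2 CPM in the stimulated libraries (log2 fold change −1.69 ± 0.12, adjusted p = 1.09e-05) and *St3gal1* at 21.7, 28.1, 21.8 and 32.8 CPM in the control libraries and 40.2, 43.5, 66.5 and 88.4 CPM in the stimulated libraries (log2 fold change 1.15 ± 0.14, adjusted p = 0.000426). Neither pair of groups overlapped, and the other 4 were not called.

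Further genes among the largest changes belonged to no group. *Cd93*, which encodes a C-type lectin-like receptor, was at 0.313, 0.256, 0.5 and 1.19 CPM in controls against 2.28, 1.69, 2.79 and 5.66 CPM under isoproterenol (log2 fold change 2.48 ± 0.28, adjusted p = 0.000278), and all stimulated libraries lay above the controls. Among the falls, *Apcdd1*, which encodes a Wnt inhibitor, was at 9.87, 6.3, 6.5 and 9.54 CPM in the control libraries and 3.48, 2.45, 2.52 and 2.67 CPM in the stimulated libraries (log2 fold change −1.52 ± 0.16, adjusted p = 0.00017) with no overlap, and was called without the block. *Car3*, the carbonic anhydrase 3 gene, known for high levels in fat, was at 1.25, 0.852, 20.2 and 20.2 CPM in controls against 0.596, 0.0627, 7.73 and 6.37 CPM under isoproterenol (log2 fold change −1.55 ± 0.19, adjusted p = 0.000515). Replicates 5 and 6 held far more of it than replicates 3 and 4, and it was lower under isoproterenol within each pair. *Smkr-ps* (−1.59 ± 0.26) and *Gm43611* (−1.49 ± 0.27), for which no role is given here, did not overlap between groups. *Ybx2*, a Y-box protein gene, was at 1.25, 1.53, 1.5 and 1.53 CPM in controls against 0.496, 0.251, 1.08 and 0.472 CPM under isoproterenol (log2 fold change −1.42 ± 0.39, adjusted p = 0.0376), and leaving out replicate 3 (0.122), 4 (0.119) or 6 (0.105) ended its call. *Scp2-ps2*, a pseudogene copy of a sterol carrier protein gene of which 84.3% of the 31-base stretches also occur in other genes, differed by −1.45 ± 0.21.

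Some of the steepest rises came from paralogs and noncoding loci that share sequence with other genes. *Prl2c2* and *Prl2c3*, which encode proliferins, secreted hormones of the prolactin family, were at 2.58, 3.07, 1.58 and 2.64 CPM in controls against 21.4, 15.5, 14.6 and 17.9 CPM under isoproterenol (log2 fold change 2.81 ± 0.15, adjusted p = 2.07e-06) and at 2.58, 3.49, 1.92 and 1.7 CPM in controls against 20.2, 20.8, 17.8 and 21.1 CPM under isoproterenol (log2 fold change 3.04 ± 0.16, adjusted p = 1.78e-06). They share 909 stretches of 31 bases, 81.2% of those of *Prl2c2*, so the split of reads between them is uncertain. Of the long noncoding genes, the 5 largest rises were *Gm47140* (3.05 ± 0.25), *Gm29408* (2.78 ± 0.10), *Gm12840* (2.25 ± 0.08), *Gm48942* (2.08 ± 0.08) and *Gm20400* (1.98 ± 0.09). *Gm29408* was at 27.8, 30.2, 21.2 and 21.3 CPM in the control libraries and 194, 164, 188 and 144 CPM in the stimulated libraries (adjusted p = 9.96e-08), and *Gm12840* at 89.4, 84.3, 71.9 and 65.5 CPM in the control libraries and 416, 339.5, 410.4 and 312 CPM in the stimulated libraries (adjusted p = 9.96e-08). The ratio of stimulated to control within replicates 3, 4, 5 and 6 was 7, 5.43, 8.86 and 6.78 for *Gm29408*, 4.65, 4.03, 5.71 and 4.77 for *Gm12840*, 4.64, 3.53, 4.86 and 4.01 for *Gm48942*, and 4, 3.55, 4.18 and 4.14 for *Gm20400*. Replicate 4 had the lowest ratio in each. The pseudogenes *Gm45551* (log2 fold change 2.55 ± 0.07, adjusted p = 2.88e-08) and *Gm9973* (log2 fold change 2.34 ± 0.07, adjusted p = 8.62e-08) rose too, with ratios of 5.4 to 6.3 and 4.21 to 5.57.

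These loci overlap in sequence. Of the 31-base stretches of their annotated transcripts, 51.6% in *Gm29408*, 50.2% in *Gm45551*, 62% in *Gm12840*, 23.9% in *Gm48942* and 8.62% in *Gm20400* also occur in another gene, on either strand. *Gm48942* shares 176 of them with *Gm9973* and 78 with *Gm45551*, and *Gm12840* shares 357 with *Gm20186* and 82 with *AC160336.1*. The latter pair, looked up for this overlap after the values were seen, rose too. *AC160336.1* is a noncoding locus that spans chr14:44544055-44637201 and was at 809.5, 832, 624 and 542 CPM in the control libraries and 2743, 2339, 2554 and 1977 CPM in the stimulated libraries (log2 fold change 1.79 ± 0.08, adjusted p = 1.21e-06). *Gm20186* was at 159, 187, 119 and 109 CPM in controls against 615, 518, 546 and 422 CPM under isoproterenol (log2 fold change 1.89 ± 0.10, adjusted p = 1.84e-06). In both the groups lay apart. The counter salmon can split a read between transcripts of like sequence. The share of stretches found in another gene was 80.5% in *Gm20186*, 19.8% in *Gm47140*, 19% in *AC160336.1* and 6.26% in *Gm9973*. It was thus smallest in *Gm9973* and *Gm20400*, most of whose sequence is their own. Where along a transcript the reads lay is not given by counts per gene. Which of these loci gave the reads cannot be told from the table, and each is reported as uncertain. Among genes described above, the share of stretches found in another gene was 72.8% in *Cideb*, 62.2% in *Tagln*, 56.4% in *Tubb2a*, 54.5% in *Fosl1* and 50.4% in *Rpl5*, whose levels are uncertain for the same reason. By contrast, *Ucp1* shares 0 of its stretches with another annotated gene.

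**Figure D5:**
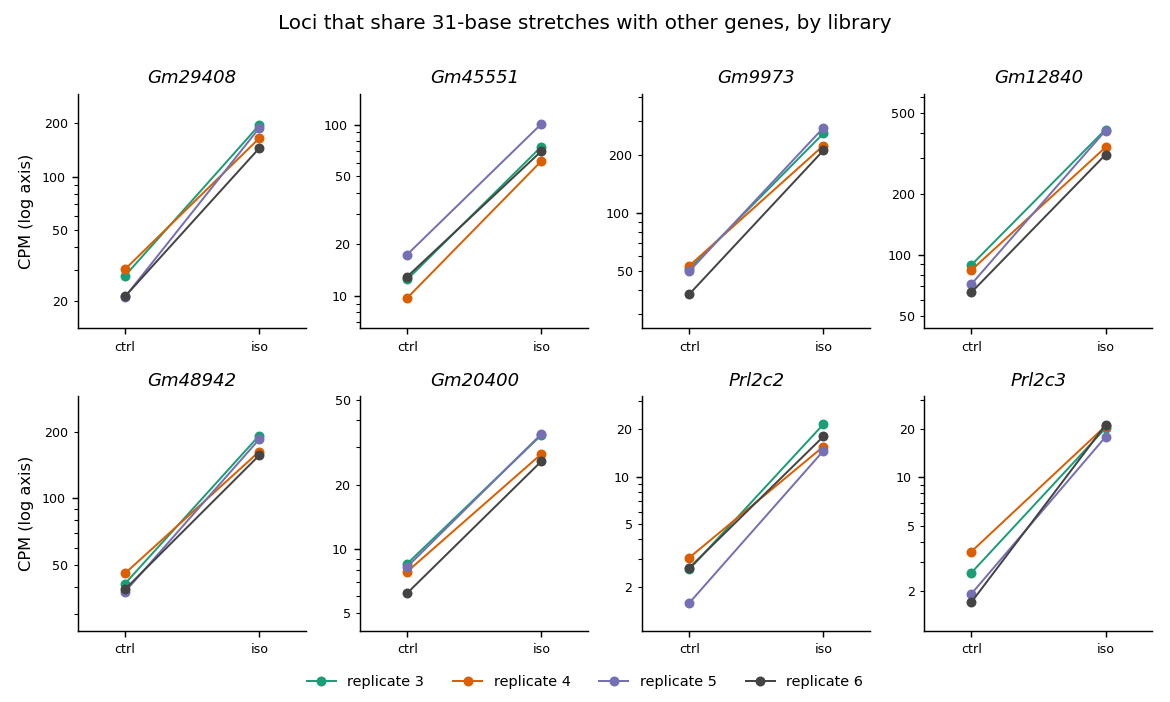
Levels in CPM on log axes of 6 noncoding or pseudogene loci and the 2 proliferin genes, each line joining the control (ctrl) and isoproterenol (iso) library of 1 replicate. All lines rise, between 3.53-fold (*Gm48942*, replicate 4) and 12.4-fold (*Prl2c3*, replicate 6).

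Whether any gene responded differently with *Gm15551* activated was tested as an interaction over all 16 libraries, with the replicate number as a block. Of 13150 genes tested, 0 were called (0%) by edgeR. The lowest adjusted p was 1, and 199 genes had an unadjusted p under 0.05, fewer than that threshold alone would give by chance. The test may thus be conservative, and the block was shared by both plasmids. The fit without the block also called 0, DESeq2 called 3, *Pde2a*, *Gm2223* and *Gm13509*, and the fit without replicate 3 called 1, *Fam177a2*. For the main responders the estimated differences from the empty plasmid were 0.08 ± 0.79 on the log2 scale for *Ucp1*, 0.04 ± 0.31 for *Nr4a1*, −0.13 ± 0.34 for *Adcy3*, −0.12 ± 0.20 for *Pde4d*, 0.24 ± 0.12 for *Adipoq* and 0.01 ± 0.11 for *Insig1*, where a positive value is a larger rise or smaller fall in the sgRNA cells. For *Gm15551* itself the estimate was 1.54 ± 0.58, from the counts given above. None of the changes described above is therefore shown to be particular to the cells with the activated gene, and a p above the threshold does not show that the responses were equal.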

How the data were processed

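Polyadenylated RNA of 8 libraries, 4 per group, was analysed. Reads trimmed with cutadapt had been assigned by the authors to GENCODE transcripts (GRCm38) with salmon, and the deposited values are estimated counts per gene, as whole numbers without normalization or a filter. Tool versions and the use of strand were not given in the sources used here, so values of antisense and overlapping genes such as *Gm15551* and *Camk2d* are uncertain. Coordinates came from a GENCODE annotation of the same build, which held 54094 of the 54347 identifiers, and promoter windows came from RefSeq.

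Counts were tested in R 4.3.3 with edgeR 4.0.16: filterByExpr (minimum count 10, minimum total 15), TMM scaling, and a two-sided quasi-likelihood F-test (glmQLFit, glmQLFTest) of treatment with the replicate number as a block and Benjamini-Hochberg adjustment. A call required an adjusted p under 0.05 and a log2 fold change over 0.5 in size. The standard error is the log2 fold change divided by the root of F. The interaction with plasmid was tested likewise over 16 libraries. The pairing follows the numbers in the titles and was checked: deviations from the group means correlated at 0.395, 0.427, 0.516 and 0.567 within numbers and between −0.408 and 0.349 (median −0.313) across numbers. Deviations from a group mean cancel within the group, which pulls the values across numbers down when those within are positive. The negative median is therefore no separate check, and the highest value across numbers lay close to the lowest within. Of the variance, 35.9% lay on a component that separated the numbers. Standard errors include the spread between libraries, and the limit of 3 counts covers counting error only.

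Genes were named by a rule: the target and its host gene, the 12 largest rises and 12 largest falls among called genes of at least 1 CPM with the same sign in all 4 pairs, up to 4 called genes of each of 49 lists (the members of highest level where fewer than 2 were called), a set of adipocyte genes, and the 5 long noncoding genes with the largest change. Groups, lists and the rule were chosen with earlier results of these data known. A few genes that the rule names are not reported here. Shared sequence was counted as 31-base stretches of GENCODE transcripts on either strand. Alternatives were no replicate block, DESeq2 1.42.0, RLE scaling, no filter, all 16 libraries in the fit, the ribosomal RNA gene removed or its share as a covariate, a test against the bound, no bound, and leaving out each replicate.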

Additional observations from a re-analysis of the deposited data

Results flagged for a closer look

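In 15 of the 330 groups of 4 libraries tested, over the genes that the naming rule chose, 1 library stood apart from the other 3 by more than Dixon's 95% limit, where chance gives about 1 group in 20. The values are levels in CPM. Replicate 6 stood apart in the control libraries for *Pde10a* (1.53, the others up to 0.333), *Dhcr7* (48, the others from 55.5) and *Calm2* (317, the others up to 254), and in the stimulated libraries for *Cav1* (355), *Tagln* (2.6) and *Mt1* (1210, the others up to 858). Replicate 5 stood apart in the controls for *Adra1d* (9.17, the others up to 5.09) and *Timp1* (4, the others from 8.01), and in the stimulated libraries for *Ppargc1a* (99.5) and *Timp1* (7.55, the others from 14.9), so that *Timp1* was low in both libraries of that number. Replicate 4 stood apart for *Iigp1* (2.13, stimulated) and *Fgf21* (105, control). Replicate 3 stood apart for *Gm43611* (0.596, stimulated), *Ybx2* (1.25, control) and *Lamp1* (574, stimulated).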

How the results depend on the processing

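Against 553 genes (294 higher, 259 lower), the fit with no replicate block gave 79 (48 higher, 31 lower), all of them shared, with a median biological coefficient of variation of 16.3% in place of 8.33%. A test against the bound of 0.5 itself gave 149 (103 higher, 46 lower), and no bound gave 1586 (799 higher, 787 lower). DESeq2 gave 426, of which 413 were shared, RLE scaling 558, all 16 libraries in the fit 513, no filter 796, the ribosomal RNA gene taken out 552 and its share as a covariate 617. Leaving out 1 replicate gave 392 (without replicate 5) to 677 (without replicate 4). The interaction gave 0 calls without the block, 3 in DESeq2, with fitted values over 30 in size on the log2 scale in either direction, and 0 to 1 when a replicate was left out. Of the 106 called genes that the naming rule chose, 77 were not called without the block, 55 not against the bound and 30 not without at least 1 replicate, while 0 of them changed direction under any alternative run. Called genes named only as members of a group were not followed singly. DESeq2 ended the calls of *Gm15551*, *Ybx2*, *Adra1d*, *Adcy5*, *Rgs3*, *Pnpla3*, *Lrp1*, *Srebf1*, *Klf4*, *Cxcl12*, *Plaur*, *Fst*, *Sox9*, *Tagln*, *Ptgis* and *Cdkn2b*, and the fit over 16 libraries those of *Gm15551*, *Scp2-ps2*, *Adra1d*, *Rgs3*, *Pnpla3*, *Cxcl12* and *Gbp3*. *Sctr* without replicate 5, *Cxcl12* without replicate 5 or 6 and *Tagln* without replicate 6 did not pass the filter on low counts and gave no value. The cause was not tested. Levels under 10 CPM limited the precision, with a median standard error of 0.21 on the log2 scale at 1 to 10 CPM.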
